A study of Mus musculus with 6 samples.

Results

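The proteins of the mitochondrial ribosome were examined in muscle of SAMP-10 mice, named as triceps in the methods. All genes on the array whose symbol begins with Mrpl or Mrps followed by a number were taken. These were 76 of 19505 genes with a symbol, 48 named for the large subunit (Mrpl) and 28 named for the small subunit (Mrps), and each had a single probe set among the 22206 of the array. The u40Hz-stimulation group comprised 3 male SAMP-10 mice (mice 4, 10 and 11) exposed to continuous, inaudible vibration at 40 Hz for 5 weeks, and the control group comprised 3 male SAMP-10 mice (mice 1, 6 and 8) without stimulation. SAMP-10 is an inbred strain with accelerated aging, so both groups share this background and no normally aging strain was compared. No transgene is described for the mice, the labels give no age, and 1 Affymetrix Mouse Clariom S array was hybridized per mouse.

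The mitochondrial ribosome translates the few messenger RNAs of the mitochondrial genome, which encode membrane subunits of the respiratory chain and of ATP synthase. Its RNA comes from mitochondrial DNA, whereas all its proteins are encoded in the nucleus, made in the cytosol and imported. The small subunit binds the messenger RNA and decodes it. The large subunit joins the amino acids and releases the growing chain through a tunnel that opens at the inner mitochondrial membrane. Many of its proteins have counterparts in bacterial ribosomes, and others are found only in mitochondria. Muscle, with its high demand for ATP, is among the tissues affected by inherited defects of mitochondrial translation.

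The promoters of these genes are shown first, because a few factors are known to act on many nuclear genes of mitochondria, namely NRF1 (nuclear respiratory factor 1), the ETS factor GABPA and YY1. RefSeq promoter sequences (GRCm38.p6, 250 bases before to 50 bases after the start site) were matched for 67 of the 76 genes. The unmatched ones were *Mrpl4*, *Mrpl13*, *Mrpl15*, *Mrpl19*, *Mrpl38*, *Mrpl54*, *Mrps28*, *Mrps34* and *Mrps35*. The letters CCGGAAG, the core bound by ETS factors, were present on either strand in 25 of the 67 genes (37.3%), against 9.93% of 27025 genes with a promoter sequence and 12.9% of the protein-coding ones. The NRF1 letters GCGCANGCG were present in 16 of the 67 (23.9%), against 7.03% of all genes and 9.63% of the protein-coding ones. The YY1 letters AANATGGCG were present in 11 (16.4%), against 2.76% of all genes and 3.64% of the protein-coding ones. The E-box CACGTG was found in 5 of the 67 (7.46%), against 8.09% and 8.91%, and TCAAGGTCA, a site of estrogen-related receptors, in 0 of the 67, against 0.47% and 0.38%. Member promoters had a median GC content of 58.3%, against 52.7% for all promoters, and the part of base composition in these shares was not tested. The last letters of the ETS motif can begin the YY1 motif, but in none of the member promoters did the matches overlap (0 genes). By subunit, the ETS letters stood in 14 of 42 large and 11 of 25 small subunit genes, and the NRF1 letters in 12 of 42 and 4 of 25. A match describes these letters and is not evidence of a bound site.

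An ETS match before the start site is shown for *Mrps16*, *Mrpl43* and *Mrpl52*, which were among the genes with the most negative log2 fold changes. Genes with positive log2 fold changes also carried the ETS letters, among them *Mrpl21*, *Mrps18c*, *Mrps33* and *Mrps26*. The stretch of *Mrps16* comes from 1 of its 2 promoters. Capitals mark the motif or its complement, and each line runs 5′ to 3′ on the strand of the gene.
Mrps16 (chr14:20393543-20393579, minus strand): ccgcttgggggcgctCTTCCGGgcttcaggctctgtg
Mrpl43 (chr19:45006443-45006469, minus strand): gccacaaccccggaaCCGGAAGtcacc
Mrpl52 (chr14:54426847-54426883, plus strand): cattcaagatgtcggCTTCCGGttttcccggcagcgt

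NRF1 matches are shown for *Mrpl57* and *Mrps21*, which had negative log2 fold changes, and for *Mrpl45*, which had a positive one, so genes of both signs carried the same letters.
Mrpl57 (chr14:57826167-57826205, plus strand): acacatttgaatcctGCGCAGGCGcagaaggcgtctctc
Mrps21 (chr3:95871581-95871619, minus strand): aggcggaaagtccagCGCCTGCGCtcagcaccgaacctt
Mrpl45 (chr11:97315663-97315701, plus strand): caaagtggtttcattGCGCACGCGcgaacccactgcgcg

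The YY1 letters lay just after the start site, on the strand of the gene, in 9 of the 11 genes that held them, starting between bases 9 and 37. They are shown for *Mrps18a* and *Mrps30*, whose proteins are named for the small subunit but sit in the large one.
Mrps18a (chr17:46111005-46111033, plus strand): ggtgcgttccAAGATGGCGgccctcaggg
Mrps30 (chr13:118387219-118387247, minus strand): gcggcgggcgAAAATGGCGgcggccaggt

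Expression was read as log2 signal, in which 1 unit is a doubling. Array medians were between 5.53 and 5.61, and signals of the members lay between 4.76 and 16.2. All 76 were below the upper limit of the scale, 19.9. Muscle markers were high, with signals of 12 fast fibre genes between 17.4 and 19.9. The mean of 12 slow fibre genes varied widely, at 9.65, 11.9 and 12.2 in u40Hz mice 4, 10 and 11, against 12.8, 7.63 and 9.23 in control mice 1, 6 and 8. The 13 adipocyte genes averaged 11.9, 6.69 and 7.14 for u40Hz mice 4, 10 and 11, against 6.87, 6.27 and 7.45 for control mice 1, 6 and 8, so a single stimulated mouse stood apart. Of 12 tendon genes, 7 had an unadjusted p under 0.05 in the lower direction (3.15% of all probe sets did), with list means of 9.28, 8.47 and 8.68 for the u40Hz mice, against 10.36, 9.18 and 10.31 for the control mice. In such whole-tissue RNA, fewer cells of a type and less RNA per cell cannot be told apart. Labels do not say more of the mice than their group and number. The p-values from limma set the difference between the groups against a spread within the groups. For each gene this spread was moderated, that is, drawn from its own values in these 6 mice toward that of all probe sets.

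The question was whether the u40Hz stimulation went with a different level of these genes. None of the 76 passed an adjusted p under 0.05 in limma, as for all probe sets (0%), and the smallest adjusted p among them was 0.711. Only *Mrps16* had an unadjusted p under 0.05, with a lower mean, which is 1.32% of the members against 7.01% of all probe sets. In the higher direction there were 0 of 76, against 3.86% of all probe sets, and in the lower direction 1 of 76, against 3.15%. The median log2 fold change (u40Hz minus control) was -0.085, with 48 genes lower and 28 higher in mean, beside a median of 0.01 and 48.6% lower over all probe sets. The members ranged from -0.61 to 0.52, and 6 of 76 (7.89%) exceeded 0.5 in size, against 11.9% of all probe sets. For 69 of the 76 (90.8%), the 95% interval lay within a doubling or a halving, against 78.7% of all probe sets, so smaller differences are not shown to be absent. Without control mouse 1, *Mrpl19*, *Mrpl47* and *Mrps9* had an unadjusted p under 0.05 in the higher direction and *Mrps16* and *Mrpl52* in the lower, 6.58% of the members against 8.0% of all probe sets. The median was then -0.0033, and it was -0.0933 without control mouse 6 and -0.158 without control mouse 8. It was -0.0167 without u40Hz mouse 4, -0.0408 without u40Hz mouse 10 and -0.15 without u40Hz mouse 11. Without u40Hz mouse 11, the 2 genes past that threshold were *Mrpl43* and *Mrps21*, both lower (2.63%, against 6.58% of all probe sets). Without u40Hz mouse 10 there were 0, against 8.28%. Without u40Hz mouse 4, control mouse 6 or control mouse 8 a single gene passed (1.32%), *Mrpl20*, *Mrps25* or *Mrpl23*, each lower, against 6.36%, 4.53% and 4.89% of all probe sets.

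**Figure D1:**
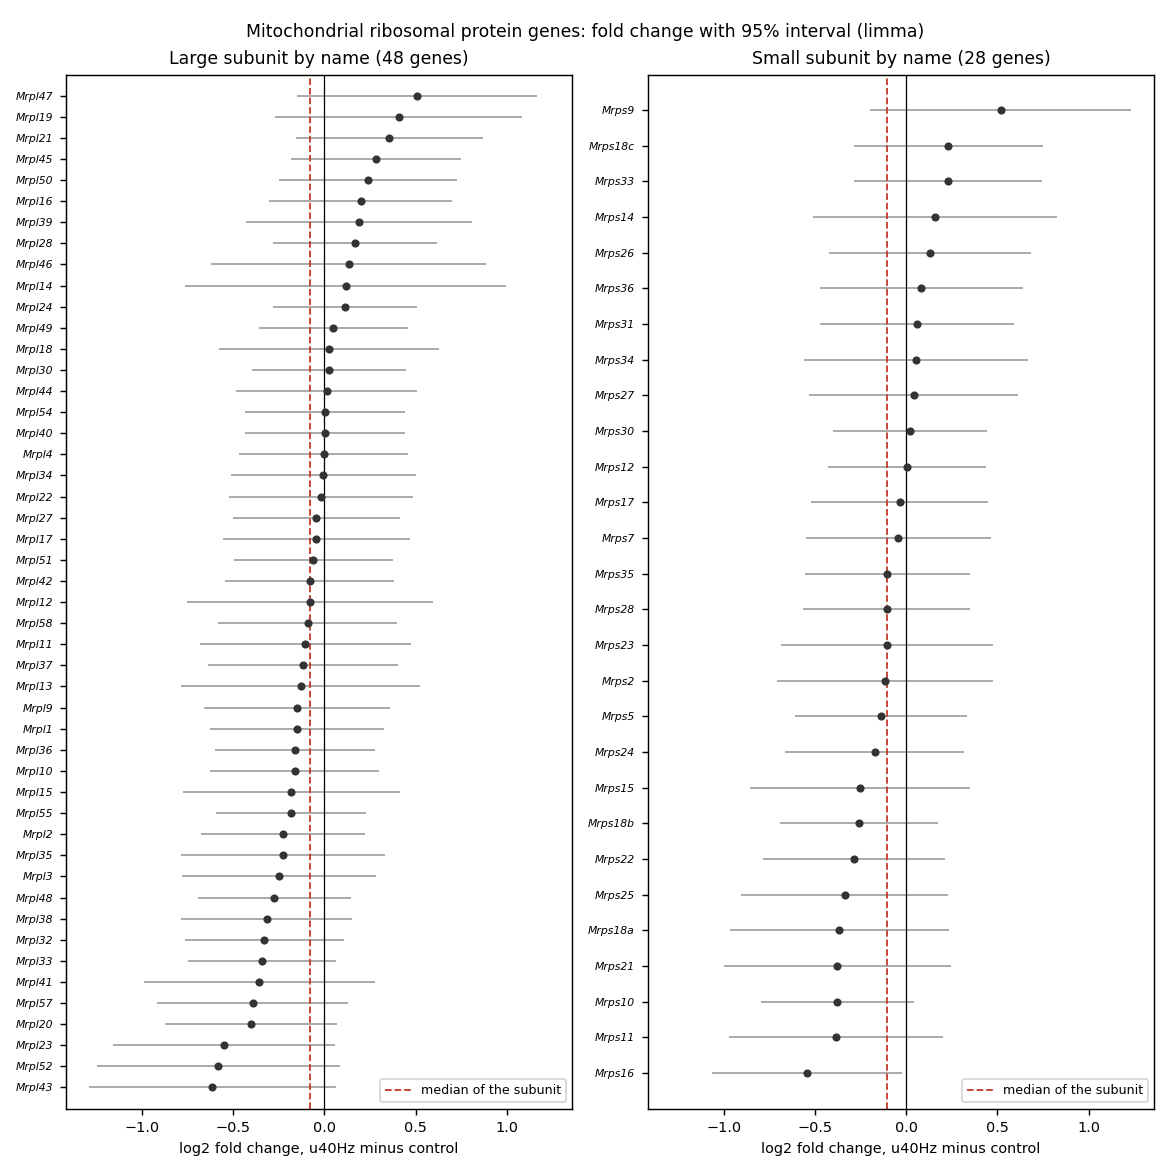
Log2 fold change (u40Hz minus control, x axis) of each mitochondrial ribosomal protein gene (rows) with its 95% interval from limma (n = 3 mice per group), the large subunit at left and the small subunit at right. Dashed lines mark the medians of -0.08 and -0.105, and the interval of *Mrps16* is the only one that leaves out 0.

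*Mrps16*, a small subunit protein with a bacterial counterpart whose loss in humans causes a defect of the respiratory chain, had log2 signals of 5.88, 5.97 and 5.95 in u40Hz mice 4, 10 and 11, against 6.09, 6.85 and 6.49 in control mice 1, 6 and 8. All stimulated mice lay below all control mice, and the stimulated mice differed from each other by less than the controls did. The means were 5.93 ± 0.05 and 6.48 ± 0.38 (SD, n = 3 each), with a two-sided exact permutation p of 0.1, the smallest possible with groups of 3. In limma its log2 fold change was -0.54 with a 95% interval from -1.06 to -0.02 (unadjusted p = 0.0428), and the adjusted p was 0.711. It was -0.36 without control mouse 6, and the unadjusted p was under 0.05 in 1 of the 6 fits that left out a mouse. From its own spread alone (lmFit without moderation) the unadjusted p was 0.07.

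*Mrpl43*, *Mrpl52* and *Mrpl23* had the most negative fold changes of the large subunit. *Mrpl43*, a protein found only in mitochondrial ribosomes, had 6.60, 7.30 and 7.77 in u40Hz mice 4, 10 and 11, against 7.64, 7.93 and 7.94 in control mice 1, 6 and 8 (log2 fold change -0.61, unadjusted p = 0.0707 from limma). Its groups overlapped through u40Hz mouse 11, and the fold change was -0.30 without u40Hz mouse 4. *Mrpl52*, also specific to mitochondria, had 6.49, 7.26 and 7.36 in the u40Hz mice, against 7.25, 7.98 and 7.62 in the control mice (log2 fold change -0.58, unadjusted p = 0.0808). *Mrpl23*, which lies at the exit of the peptide tunnel, had 10.2, 10.58 and 10.58 in the u40Hz mice, against 10.96, 11.49 and 10.56 in the control mice (log2 fold change -0.55, unadjusted p = 0.0706). In all 3 genes u40Hz mouse 4 was lowest and the groups overlapped. *Mrpl52* was at -0.31 without u40Hz mouse 4 and *Mrpl23* at -0.31 without control mouse 6.

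Genes whose groups did not overlap numbered 6 in the lower direction, 7.89% of the members against 6.05% of all probe sets, and 1 in the higher direction, 1.32% against 6.40%. Besides *Mrps16* they were *Mrpl20*, *Mrps10*, *Mrpl33*, *Mrpl32* and *Mrpl48* (lower) and *Mrpl24* (higher), of which the last 4 were singled out after their values were seen. *Mrpl20*, a large subunit protein with a bacterial counterpart, had 9.66, 9.20 and 9.43 in u40Hz mice 4, 10 and 11, against 9.80, 10.03 and 9.67 in control mice 1, 6 and 8 (log2 fold change -0.40, unadjusted p = 0.0842). *Mrps10*, of the small subunit, had 10.95, 10.88 and 11.06 in the u40Hz mice, against 11.42, 11.42 and 11.18 in the control mice (log2 fold change -0.38, unadjusted p = 0.0709). In both genes every u40Hz value lay below every control value, in *Mrpl20* only just (9.66 against 9.67). *Mrpl24*, another protein with a bacterial counterpart, had 10.86, 10.82 and 10.89 in the u40Hz mice, against 10.79, 10.76 and 10.68 in the control mice. Its groups differed by 0.11 (log2 fold change, standard error 0.17, unadjusted p = 0.528), and its values over the 6 arrays spanned 0.21 units, the narrowest range of the 76. *Mrpl33*, a small protein of the large subunit with a bacterial counterpart and one of the higher signals here, had 14.23, 14.29 and 14.36 in the u40Hz mice, against 14.75, 14.62 and 14.53 in the control mice (log2 fold change -0.34, unadjusted p = 0.0899). *Mrpl32* and *Mrpl48*, also of the large subunit, were at -0.33 and -0.27. Groups of unequal size, with a mouse left out, separated more often in all probe sets too. Without control mouse 1, 12 members (15.8%) were higher and 9 (11.8%) lower without overlap, against 13.1% and 12.2% of all probe sets. Without u40Hz mouse 11 there was 1 higher (1.32%) and there were 21 lower (27.6%), against 11.6% and 11.1% of all probe sets. Without control mouse 6 there was 1 higher (1.32%) and there were 8 lower (10.5%), against 10.3% and 9.43%. Without control mouse 8 there were 2 higher (2.63%) and 12 lower (15.8%), against 10.4% each. Without u40Hz mouse 4 there were 3 higher (3.95%) and 7 lower (9.21%), against 11.4% and 10.8%, and without u40Hz mouse 10 there were 3 (3.95%) and 9 (11.8%), against 12.9% and 12.1%.

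*Mrps9*, *Mrpl47* and *Mrpl19* had the most positive fold changes. *Mrps9*, of the head of the small subunit, had 10.63, 10.61 and 10.64 in u40Hz mice 4, 10 and 11, against 10.70, 9.39 and 10.24 in control mice 1, 6 and 8. Its groups differed by 0.52 on the log2 scale (standard error 0.31, unadjusted p = 0.136), and by 0.157 without control mouse 6. The stimulated mice were nearly equal, and control mouse 1 exceeded them. *Mrpl47*, which has a bacterial counterpart, had 12.69, 12.85 and 12.89 in the u40Hz mice, against 12.95, 11.84 and 12.12 in the control mice (log2 fold change 0.51, unadjusted p = 0.115). *Mrpl19*, likewise a protein with a bacterial counterpart, had 9.55, 9.57 and 9.85 in the u40Hz mice, against 9.93, 8.87 and 8.95 in the control mice (log2 fold change 0.41, unadjusted p = 0.206). In all 3 genes control mouse 1 was highest and control mouse 6 lowest, the order of the slow fibre mean among the controls. In u40Hz mice 4, 10 and 11 that mean was 9.65, 11.9 and 12.2. *Mrpl47* and *Mrpl19* had the same order in these mice, and *Mrps9* did not. With the slow fibre mean as a covariate the log2 fold changes of *Mrps9*, *Mrpl47* and *Mrpl19* were 0.27, 0.25 and 0.15. The part of fibre type was not tested. Without control mouse 1 their log2 fold changes were 0.81, 0.83 and 0.75, each with an unadjusted p under 0.05, and without control mouse 6 those of *Mrpl47* and *Mrpl19* were 0.275 and 0.217. *Mrpl21* (0.36), *Mrpl45* (0.28) and *Mrpl50* (0.24), all of the large subunit, and *Mrps18c* and *Mrps33* (0.23 each), *Mrps14* (0.16) and *Mrps26* (0.13), of the small subunit, followed with unadjusted p-values of 0.149 or more. Several of these were smaller with a mouse left out. *Mrpl50* was at 0.0883 without control mouse 8, and *Mrps33* and *Mrps18c* were at 0.0783 and 0.0967 without control mouse 6. *Mrpl21* was at 0.233 without control mouse 1, the lowest of its 6 such fits, which ran up to 0.533. *Mrps14* was at -0.0467 without control mouse 6 and *Mrps26* at -0.0633 without u40Hz mouse 11.

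The other genes with large negative or positive values overlapped between groups too. *Mrpl57*, one of the smallest mitochondria-specific proteins, had 11.61, 11.26 and 11.74 in u40Hz mice 4, 10 and 11, against 11.69, 12.26 and 11.84 in control mice 1, 6 and 8 (log2 fold change -0.39, unadjusted p = 0.122). *Mrps11*, of the platform of the small subunit, had 7.97, 8.22 and 8.54 in the u40Hz mice, against 9.05, 8.28 and 8.55 in the control mice (log2 fold change -0.38, unadjusted p = 0.172). *Mrps21*, with a bacterial counterpart, had 10.85, 11.44 and 11.90 in the u40Hz mice, against 11.67, 11.86 and 11.79 in the control mice (log2 fold change -0.38, unadjusted p = 0.202). Its highest and lowest values were both of stimulated mice, and the fold change was -0.103 without u40Hz mouse 4. *Mrps11* was at -0.172 without control mouse 1 and *Mrpl57* at -0.228 without control mouse 6. *Mrpl21* had 10.04, 10.23 and 10.43 in the u40Hz mice, against 9.63, 9.77 and 10.23 in the control mice (log2 fold change 0.36, unadjusted p = 0.149), with 10.23 found in each group.

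**Figure D2:**
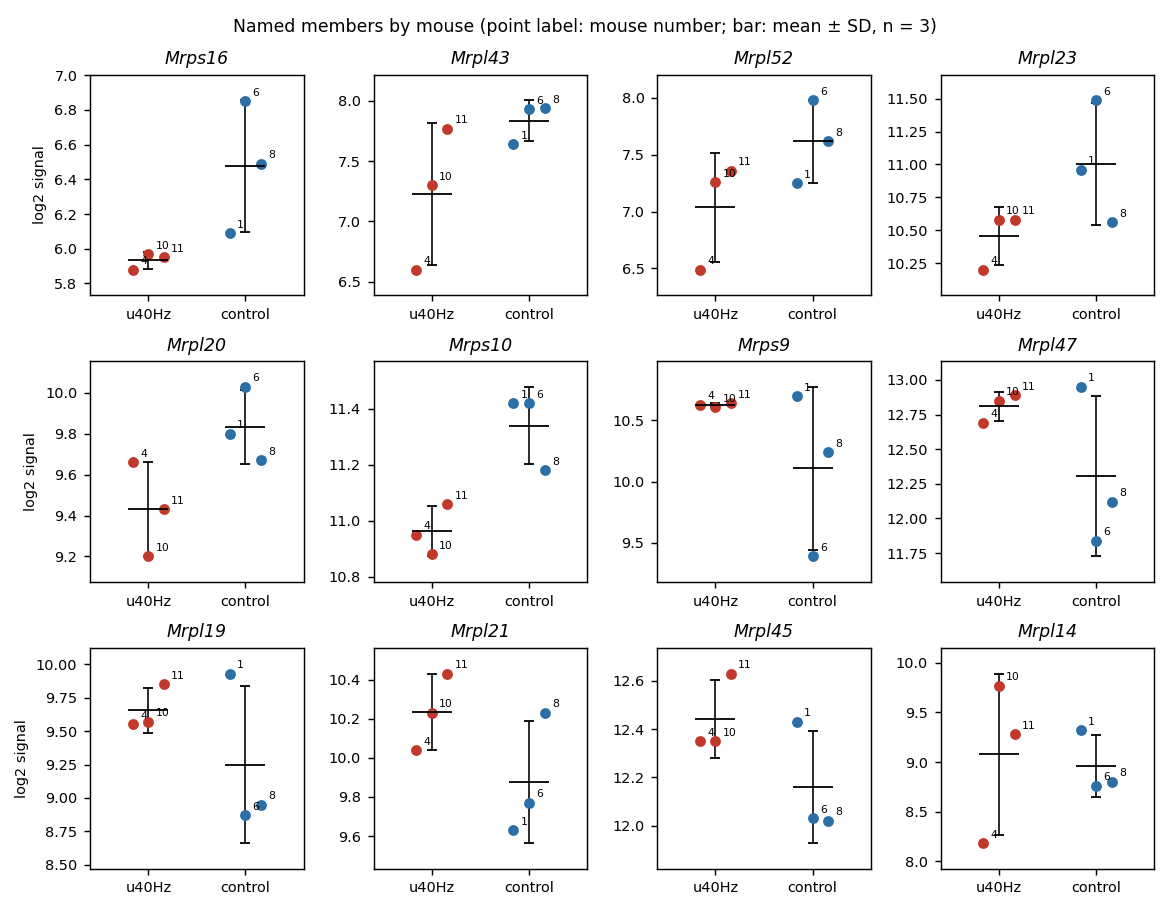
Log2 signal (y axis, a separate scale in each panel) of 12 named genes in the u40Hz mice (left) and the control mice (right), with each point labelled by mouse number and bars giving mean ± SD (n = 3). The 3 u40Hz values of *Mrps9* lie between 10.61 and 10.64 while its control values spread from 9.39 to 10.70, and *Mrpl14* spans 8.18 to 9.77 within the u40Hz mice.

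The most variable member was *Mrpl14*, a protein at the face where the subunits join, at 8.18, 9.77 and 9.28 in u40Hz mice 4, 10 and 11, against 9.32, 8.76 and 8.80 in control mice 1, 6 and 8. Its SD over the 6 arrays was 0.56, and its extremes were both stimulated mice. The log2 fold change was 0.12 (standard error 0.39) and turned to -0.23 without u40Hz mouse 10. The median SD over the 6 arrays was 0.25 for the members and 0.30 for all probe sets. Next to *Mrpl24*, *Mrpl49* and *Mrps30* had the smallest SDs, at 0.0952 and 0.114, where *Mrpl49* was named after its values were seen.

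Large and small subunits gave nearly the same picture. The median log2 fold change was -0.08 for the 48 large subunit genes, of which 31 had a lower and 17 a higher mean, and -0.105 for the 28 small subunit genes, of which 17 had a lower and 11 a higher mean. The difference of the medians (large minus small) was 0.025, and it ran from -0.0817 to 0.0458 when single mice were left out, the extremes being without u40Hz mouse 10 and without u40Hz mouse 4. It was -0.0225 without control mouse 1 and 0 without u40Hz mouse 11. Mean deviations of the large subunit genes from each gene's average over the 6 arrays were -0.20, -0.03 and 0.11 in u40Hz mice 4, 10 and 11, against 0.19, 0.0033 and -0.07 in control mice 1, 6 and 8. Those of the small subunit genes were -0.13, -0.12 and 0.11 in the u40Hz mice, against 0.22, -0.0448 and -0.0394 in the control mice. Both subunits were thus highest in control mouse 1, next in u40Hz mouse 11 and lowest in u40Hz mouse 4, and the spread within a group exceeded the distance between the groups. By structure instead of name, the medians were again -0.08 for 51 large and -0.105 for 28 small subunit genes. That count adds *Dap3*, *Ptcd3*, *Chchd1* and *Gadd45gip1*, moves *Mrps18a* and *Mrps30* to the large subunit and leaves out *Mrps36*, now known as a part of the oxoglutarate dehydrogenase complex.

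**Figure D3:**
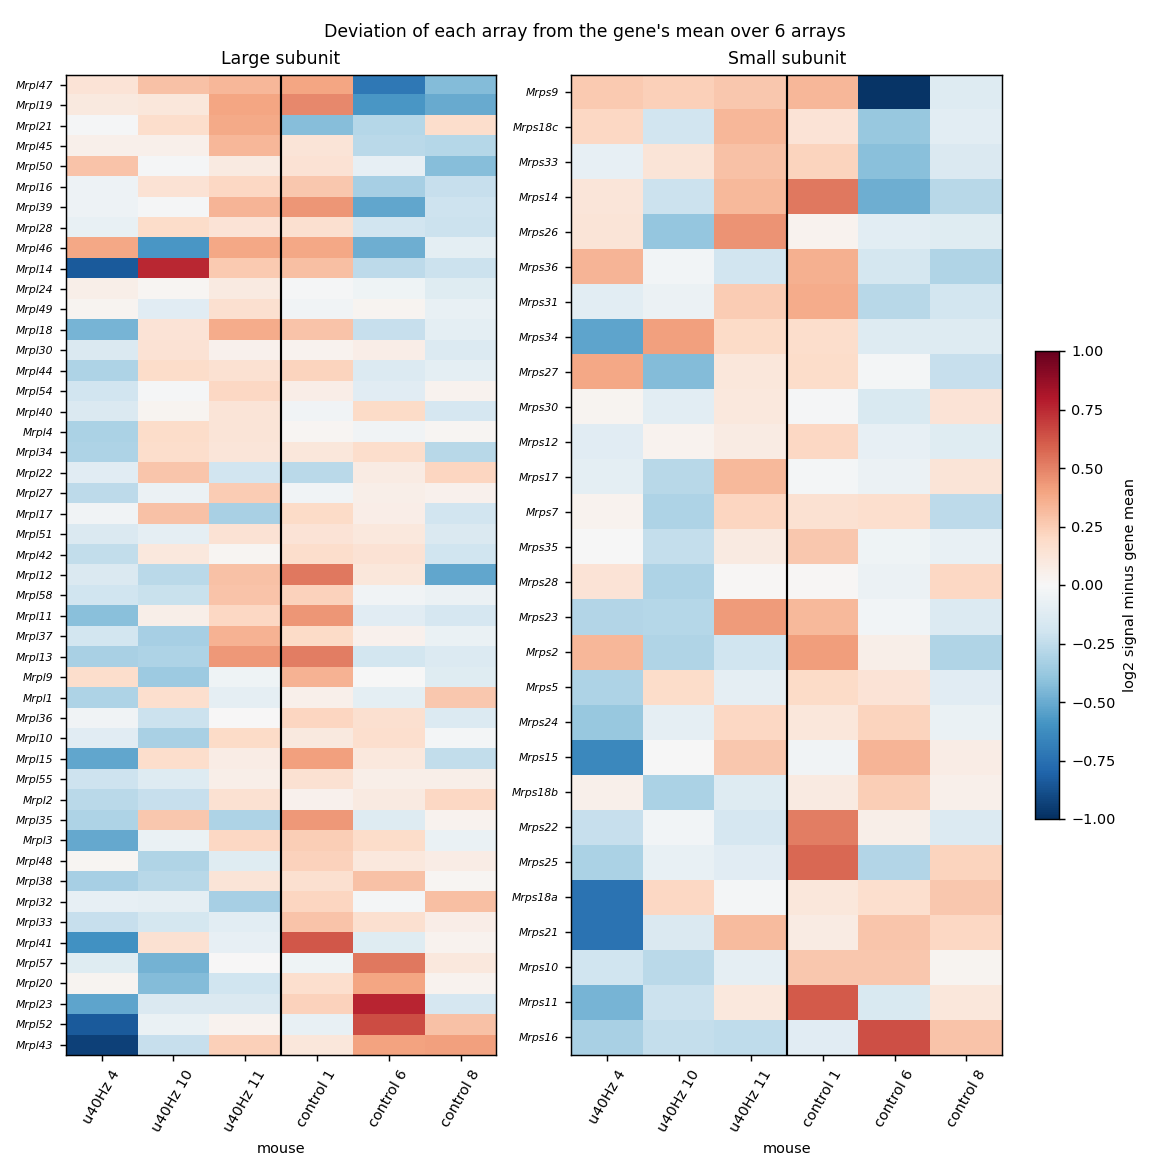
Log2 signal of each gene minus its mean over the 6 arrays (colour, red above and blue below), genes in rows ordered by fold change, mice in columns with the u40Hz mice left of the line and the control mice right of it. The column of control mouse 1 is mostly red (64 of 76 genes above their mean) and that of u40Hz mouse 4 mostly blue (21 of 76 above).

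A few mice held most of the extremes. Control mouse 1 was highest in 29 of the 76 genes (38.2%, against 13.5% of all probe sets) and u40Hz mouse 11 in 18 (23.7%, against 15.9%). U40Hz mouse 4 was lowest in 33 (43.4%, against 20.8%) and u40Hz mouse 10 in 18 (23.7%, against 15.9%), where ties were left uncounted (3 genes each way). U40Hz mouse 11 and control mouse 1 were each lowest in 2 genes. Means of 23 oxidative phosphorylation genes were 14.9, 14.7 and 15.3 in u40Hz mice 4, 10 and 11, against 15.3, 14.6 and 14.7 in control mice 1, 6 and 8. Their highest mice were thus the same pair, but their lowest was control mouse 6 and not u40Hz mouse 4. The median log2 fold change of these 23 genes was 0.0767. U40Hz mouse 4 was also the mouse with the highest adipocyte mean, and the part of other cells in its low values was not tested. The median log2 fold change of the members was -0.0143 with the adipocyte mean as a covariate and -0.0167 without u40Hz mouse 4. The adipocyte mean mainly sets that mouse apart, so these 2 fits cannot be told apart. With the slow fibre mean as a covariate the median was -0.166.

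**Figure D4:**
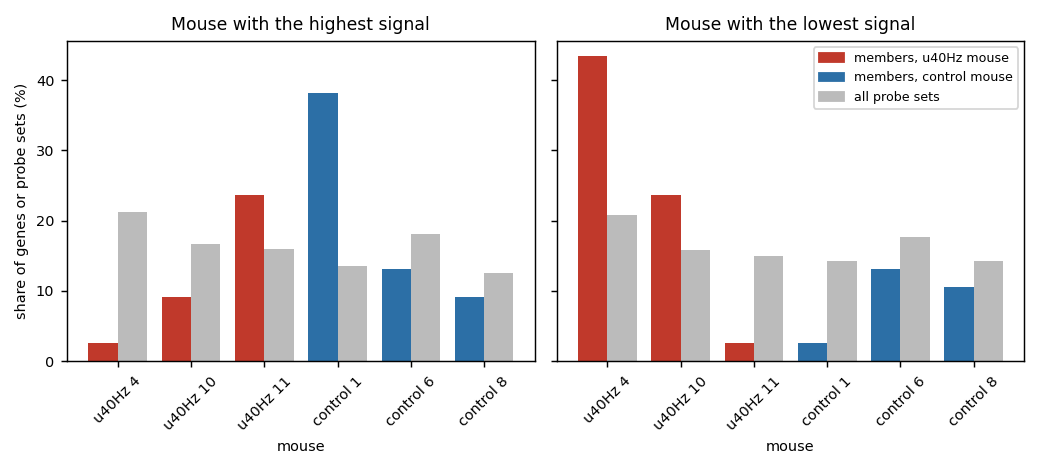
Share of genes (y axis, percent) in which each mouse (x axis) had the highest signal (left panel) or the lowest (right panel), with the 76 members in red (u40Hz mice) or blue (control mice) and all 22206 probe sets in grey. Control mouse 1 was highest in 38.2% of members, and u40Hz mouse 4 lowest in 43.4%.

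Grouped by place in the ribosome, the medians lay between -0.103 and 0.0133. The 3 measured genes of the stalk, the arm of the large subunit that recruits translation factors, were *Mrpl10*, *Mrpl11* and *Mrpl12*, with log2 fold changes of -0.16, -0.10 and -0.08. Without control mouse 1 *Mrpl11* and *Mrpl12* turned to 0.09 and 0.163, and without u40Hz mouse 10 *Mrpl10* was at -0.0433. *Mrpl12* had 10.27, 10.14 and 10.71 in u40Hz mice 4, 10 and 11, against 10.94, 10.53 and 9.89 in control mice 1, 6 and 8, so control mice held both its highest and its lowest value. The 7 genes of the central protuberance, the crown of the large subunit, had a median of -0.0433 and ran from -0.32 (*Mrpl38*) to 0.13 (*Mrpl46*, named as the end of that range). *Mrpl46* was at -0.0783 without control mouse 6. The 5 genes around the exit tunnel had a median of 0.0133 and ran from -0.55 (*Mrpl23*) to 0.28 (*Mrpl45*, the protein that anchors the ribosome to the inner membrane). *Mrpl45* had 12.35, 12.35 and 12.63 in u40Hz mice 4, 10 and 11, against 12.43, 12.03 and 12.02 in control mice 1, 6 and 8, with control mouse 1 inside the u40Hz range, and its fold change was 0.19 without u40Hz mouse 11. Of 45 members with a bacterial counterpart, 32 were lower and 13 higher in mean, at a median of -0.107. Of the other 31 members, 16 were lower and 15 higher in mean, at a median of -0.06.

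The Mrps18 family consists of 3 relatives of a single bacterial protein, each built into a different site. *Mrps18c*, the member at the bacterial position in the small subunit, had 9.39, 8.99 and 9.51 in u40Hz mice 4, 10 and 11, against 9.32, 8.80 and 9.08 in control mice 1, 6 and 8 (log2 fold change 0.23, unadjusted p = 0.338 from limma). *Mrps18b*, at another site of the small subunit, had 9.42, 9.05 and 9.24 in the u40Hz mice, against 9.46, 9.61 and 9.42 in the control mice (log2 fold change -0.26, unadjusted p = 0.205). *Mrps18a*, in the large subunit, had 9.46, 10.41 and 10.18 in the u40Hz mice, against 10.31, 10.37 and 10.47 in the control mice (log2 fold change -0.37, unadjusted p = 0.197). All 3 overlapped between groups, and *Mrps18a* was at -0.0883 without u40Hz mouse 4 and *Mrps18b* at -0.167 without u40Hz mouse 10. *Mrps30* and *Mrps36* had log2 fold changes of 0.02 and 0.0833, and each changed sign when single mice were left out.

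Other parts of mitochondrial translation were taken from lists drawn up apart from the name rule. The medians of the translation factors, synthetases and assembly factors ran from -0.0767 to 0.0383, beside -0.085 for the members. The mean was higher for 8 and lower for 6 of 14 measured translation factors, with a median of 0.0383. Of 21 mitochondrial aminoacyl-tRNA synthetases, which charge the tRNAs, 7 were higher and 14 lower in mean, at a median of -0.0767. In both lists 0 genes had an unadjusted p under 0.05 in limma, against 7.01% of all probe sets. Among 25 assembly factors, 12 were higher and 13 lower in mean, at a median of -0.02. In each direction 1 gene passed an unadjusted p of 0.05 in limma, together 8% of the list, against 7.01% of all probe sets. *Noa1*, a GTPase of ribosome assembly, had 7.31, 8.15 and 7.50 in u40Hz mice 4, 10 and 11, against 8.60, 8.57 and 7.97 in control mice 1, 6 and 8 (log2 fold change -0.73, unadjusted p = 0.0312, adjusted p = 0.707 from limma). U40Hz mouse 10 lay above control mouse 8, so its groups overlapped. *Mtg2*, a GTPase that acts on the large subunit, had 6.46, 6.50 and 6.89 in the u40Hz mice, against 6.10, 6.12 and 6.20 in the control mice (log2 fold change 0.48, unadjusted p = 0.0392). The *Mtg2* groups did not overlap, and each of these 2 genes kept an unadjusted p under 0.05 in 2 of 6 fits that left out a mouse. Among 19 factors of mitochondrial transcription and RNA processing, with a median of 0, *Tfam*, which packs and transcribes mitochondrial DNA, was at -0.27 on the log2 fold change scale (unadjusted p = 0.182). The mitoribosomal proteins named otherwise were *Dap3* at 0.37, *Ptcd3* at -0.0833, *Chchd1* at -0.50 and *Gadd45gip1* at -0.25, with unadjusted p-values of 0.132 or more. Without control mouse 1 *Ptcd3* turned to 0.0483 and *Gadd45gip1* was at -0.0767, without control mouse 6 *Chchd1* was at -0.213, and without control mouse 8 *Dap3* was at 0.19.

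**Figure D5:**
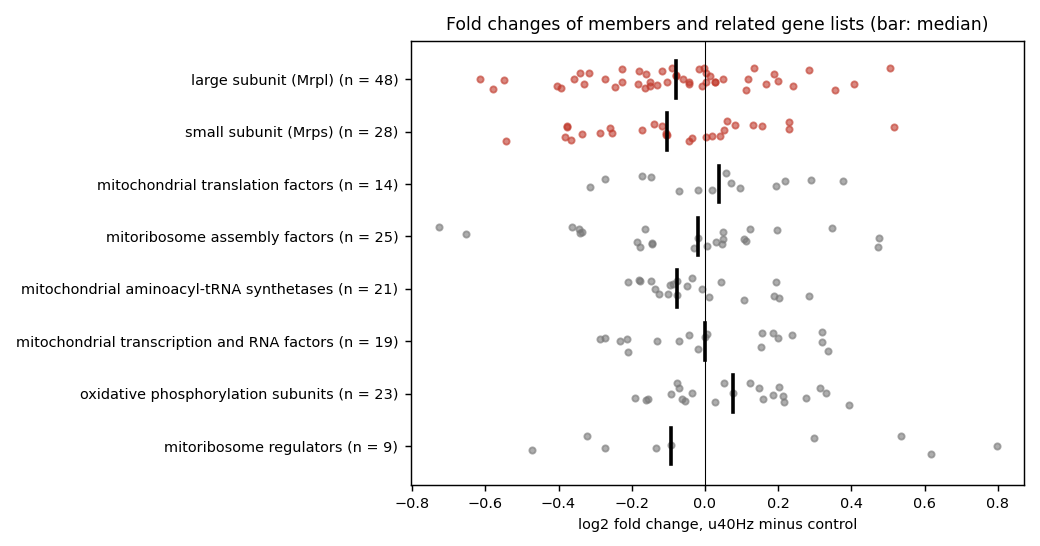
Log2 fold change (u40Hz minus control, x axis) of each gene (points, shifted vertically at random) in the large and small subunit (red) and in 6 related lists (grey), with the median as a bar. The medians of the subunits are -0.08 and -0.105, and those of the grey lists lie between -0.0933 and 0.0767.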

How the data were processed

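Total RNA of the triceps of 6 mice was hybridized to Affymetrix Mouse Clariom S arrays. The paper names the triceps in its methods and supplementary legends, and the biceps in its results. Using the Transcriptome Analysis Console, the authors normalized the scans and deposited log2 values for 22206 probe sets, which were analysed as deposited. That the scale is log2 was read from the values. How probes were summarised, and on which genome build, is not given in the sources used here. Symbols were taken from the platform annotation, and promoters from RefSeq. No 2 arrays shared over 1.27% of values.

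Groups were compared with lmFit and eBayes of limma 3.58.1 (R 4.3.3), two-sided, over all probe sets with Benjamini-Hochberg adjustment. The number of arrays limits the precision. The model was tested on simulated data. Members and lists were chosen with earlier results of these data known. The lists name the mitochondrial translation factors, assembly factors, synthetases, RNA factors, regulators, respiratory chain and cell type markers. Named members were the 5 highest and 5 lowest fold changes of each subunit, those with an unadjusted p under 0.05, those without overlap past 0.5, the 4 most variable, the Mrps18 genes, *Mrps30* and *Mrps36*. In related lists up to 3 genes with the smallest p were eligible. Alternatives were other variance models, normalizations, filters, covariates, subunits by structure and leaving out each mouse.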

Additional observations from a re-analysis of the deposited data

How the results depend on the processing

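No member passed an adjusted p under 0.05 under any of the 16 alternative fits (0 genes each). The count past an unadjusted p under 0.05 was 0 higher and 1 lower as reported. It was 2 lower with an intensity trend (2.63%, against 3.29% of all probe sets) and 1 higher and 2 lower without moderation (3.95% in either direction, against 6.38%). It was 3 lower with the slow fibre mean as a covariate (3.95%, against 2.81%) and 0 with the adipocyte mean (against 2.99%). Without moderation the genes were *Mrpl24* (higher), *Mrpl33* and *Mrps10* (lower), and with the slow fibre mean they were *Mrpl41*, *Mrps11* and *Mrps25*. The unadjusted p of *Mrps16* in these 2 fits was 0.07 (lmFit without eBayes) and 0.1075 (limma). Over the fits that left out a mouse the count ran from 0 to 3 higher (0% to 3.95%, against 2.47% to 4.61% of all probe sets). In the lower direction it ran from 0 to 2 (0% to 2.63%, against 2.07% to 3.67%). The number of genes without overlap then ran from 1 to 12 higher (1.32% to 15.8%, against 10.3% to 13.1%) and from 7 to 21 lower (9.21% to 27.6%, against 9.43% to 12.2%). With a mouse left out, the median of all members ran from -0.158 to -0.0033 and that of the large subunit from -0.15 to -0.00083. The median of the small subunit ran from -0.174 to 0.0117 in the same fits. The slow fibre covariate gave -0.166 for all members and -0.171 for the large subunit. The adipocyte covariate gave 0.00098 for the large subunit. The difference of large minus small ran from -0.0817 to 0.0458, and it was -0.0424 with the slow fibre covariate. Genes with a lower mean ran from 38 to 58. Of 24 named members 19 kept their sign in all of these fits. The other 5 crossed 0. With a mouse left out, *Mrps26* ran from -0.0633 to 0.357, *Mrps14* from -0.0467 to 0.458, *Mrpl14* from -0.23 to 0.565, *Mrps30* from -0.0517 to 0.0933 and *Mrps36* from -0.0667 to 0.28. *Mrps26* was at -0.0633 without u40Hz mouse 11, and *Mrps14* was at -0.0562 with the slow fibre covariate and -0.0467 without control mouse 6. *Mrpl14* was at -0.162 with the slow fibre covariate and -0.23 without u40Hz mouse 10. *Mrps30* was at -0.0099 with the adipocyte covariate, -0.0517 without control mouse 6 and -0.0283 without u40Hz mouse 11. *Mrps36* was at -0.0541 with the adipocyte covariate, -0.045 without control mouse 8 and -0.0667 without u40Hz mouse 4. Of the other genes named, *Mrpl11*, *Mrpl12*, *Mrpl46* and *Ptcd3* also changed sign with a mouse left out. The cause was not tested. No paired analysis was possible because the groups share no mouse numbers. Leaving out dim probe sets left 75 members.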

Other observations

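Regulators known to act on nuclear genes of mitochondria had fold changes of both signs. Of 9 measured, 4 were higher and 5 lower in mean. In limma 2 had an unadjusted p under 0.05 (both higher) and 0 an adjusted p under 0.05. The 2 are 22.2% of this short list, against 3.86% of all probe sets in the higher direction. *Gabpa*, the ETS factor whose letters were the most frequent in the member promoters, had 12.12, 12.50 and 12.17 in u40Hz mice 4, 10 and 11, against 11.93, 11.34 and 11.91 in control mice 1, 6 and 8. The groups did not overlap and differed by 0.54 (log2 fold change from limma, standard error 0.23, unadjusted p = 0.0469, adjusted p = 0.711). The fold change was 0.34 without control mouse 6. *Ppargc1a*, the PGC-1alpha coactivator of mitochondrial biogenesis, had 13.53, 13.55 and 13.7 in the u40Hz mice, against 13.56, 12.17 and 12.66 in the control mice. Control mouse 1 lay within the u40Hz range, and the difference of 0.80 (standard error 0.33, unadjusted p = 0.0404) was 0.48 without control mouse 6. It kept an unadjusted p under 0.05 in 1 of 6 fits that left out a mouse. *Yy1*, named after its values were seen, had 10.96, 11.06 and 10.95 in the u40Hz mice, against 11.14, 11.38 and 11.42 in the control mice (log2 fold change -0.32, unadjusted p = 0.112). Its groups did not overlap either. So 1 of the 9 regulators separated in each direction (11.1%), against 6.40% of all probe sets higher and 6.05% lower. *Ppargc1b*, a coactivator of mitochondrial genes, had 9.49, 8.89 and 9.57 in the u40Hz mice, against 9.17, 8.24 and 8.69 in the control mice (log2 fold change 0.62, unadjusted p = 0.0651, and 0.387 without control mouse 6). *Nrf1* was at -0.13 and *Tfam* at -0.27, and both overlapped between groups.

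Members with the ETS letters in their promoter (25 genes) had a median log2 fold change of -0.09, and those without (42 genes) of -0.08. With the NRF1 letters (16 genes) the median was -0.03, and without them (51 genes) -0.103. With the YY1 letters (11 genes) it was -0.117, and without them (56 genes) -0.0516. These medians are descriptions, since the genes share the same 6 mice.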
